A study of Homo sapiens with 6 samples.

Results

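Collagens are the main structural proteins of the extracellular matrix. Each chain carries runs of Gly-X-Y triplets, which let the chains wind into a triple helix, and each chain assembles only with certain partners. Fibrillar collagens build cables, type IV collagens build the network of basement membranes under epithelia, type VII anchors that membrane to the tissue below, and other classes bind to fibrils or span the cell surface. Epithelial cells such as those of the lung make mainly basement membrane chains, whereas fibrillar type I and type III collagens are typical products of fibroblasts.

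The collagen genes were followed here in A549, an established epithelial cell line from a human lung adenocarcinoma, harvested 48 hours after small interfering RNA (siRNA) had been transfected. In 3 libraries the cells had received an siRNA against GSE1 (siGSE1), a gene whose product associates with CoREST, a repressor complex, and in 3 libraries a negative control siRNA; the genotype is otherwise that of the line, and both groups were transfected. All rows of the deposited table whose gene symbol consists of COL, a number, the letter A and a number were taken, which gave 44 collagen genes of 60612 genes in all. Levels are FPKM, the read count scaled to exon length and library total, as deposited, and a gene counted as expressed at a mean of at least 1 FPKM in either group.

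Library totals ran from 14475992 to 20755506 counts. GSE1 had 7.37, 8.06 and 7.92 FPKM in control replicates 1, 2 and 3 and 3.84, 4.06 and 3.73 in the siGSE1 replicates, 48.95% of the control level in the fit. Of 6 epithelial markers, 5 were expressed, with KRT18 at 902 ± 135 FPKM in control cells (SD, n = 3), while EPCAM reached 0.957; their change is given with the other cell markers. Control replicate 2 stood apart in its group, with a chi-square per degree of freedom of 9.99 and 8.84 against control replicates 1 and 3, where those 2 had 4.49 between them. The labels do not say whether replicates were separate cultures, so the spread behind the p-values may be technical. In bulk RNA, more RNA per cell and more cells that express a gene cannot be told apart.

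Of the 44 collagen genes, 16 were expressed and 28 were not. The 16 were the 6 type IV genes COL4A1 to COL4A6, the fibrillar genes COL5A1, COL5A2, COL27A1 and COL1A1, the anchoring fibril gene COL7A1, the beaded filament genes COL6A1 and COL6A2, the fibril-associated genes COL12A1 and COL16A1, and COL18A1, a basement membrane collagen whose C-terminal fragment is endostatin. COL16A1, at 1.01 FPKM in control and 0.970 in siGSE1 cells, lay just inside the limit, and COL5A3, at 0.700 and 0.807, just outside. COL1A2, whose product joins that of COL1A1 in type I collagen, COL6A3, whose product joins those of COL6A1 and COL6A2 in type VI, and COL3A1, which forms type III collagen alone, had means of at most 0.0300 FPKM in both groups. Also under the limit were COL2A1, COL5A3, COL11A1, COL11A2 and COL24A1 (fibrillar), COL6A5 and COL6A6, COL8A1, COL8A2 and COL10A1, COL9A1, COL9A2, COL9A3, COL14A1, COL19A1, COL20A1, COL21A1 and COL22A1, the transmembrane COL13A1, COL17A1, COL23A1 and COL25A1, and COL15A1, COL26A1 and COL28A1.

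All collagen genes together had 146.1, 115.6 and 142.9 summed FPKM in control replicates 1, 2 and 3 and 194.0, 187.6 and 203.2 in siGSE1 replicates 1, 2 and 3, or 0.110% to 0.141% and 0.187% to 0.204% of the counts. COL5A2 alone made up 29.5% to 33.9% of the summed FPKM in control and 28.8% to 29.3% in siGSE1 libraries. In control cells COL5A2 was followed by COL18A1 at 25.2 FPKM, COL7A1 at 17.1, COL4A2 at 10.3 and COL6A1 at 7.26. The deposited length counts every annotated exon of a gene, which lowers FPKM where many isoforms are annotated. COL4A2 has a deposited length of 19271 bases against 6494 for the GENCODE release 29 transcript with its longest coding sequence, and on that transcript length its control mean was 30.6 FPKM instead of 10.3, close to COL18A1 at 32.3. On transcript lengths the number of expressed collagen genes was again 16.

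**Figure D1:**
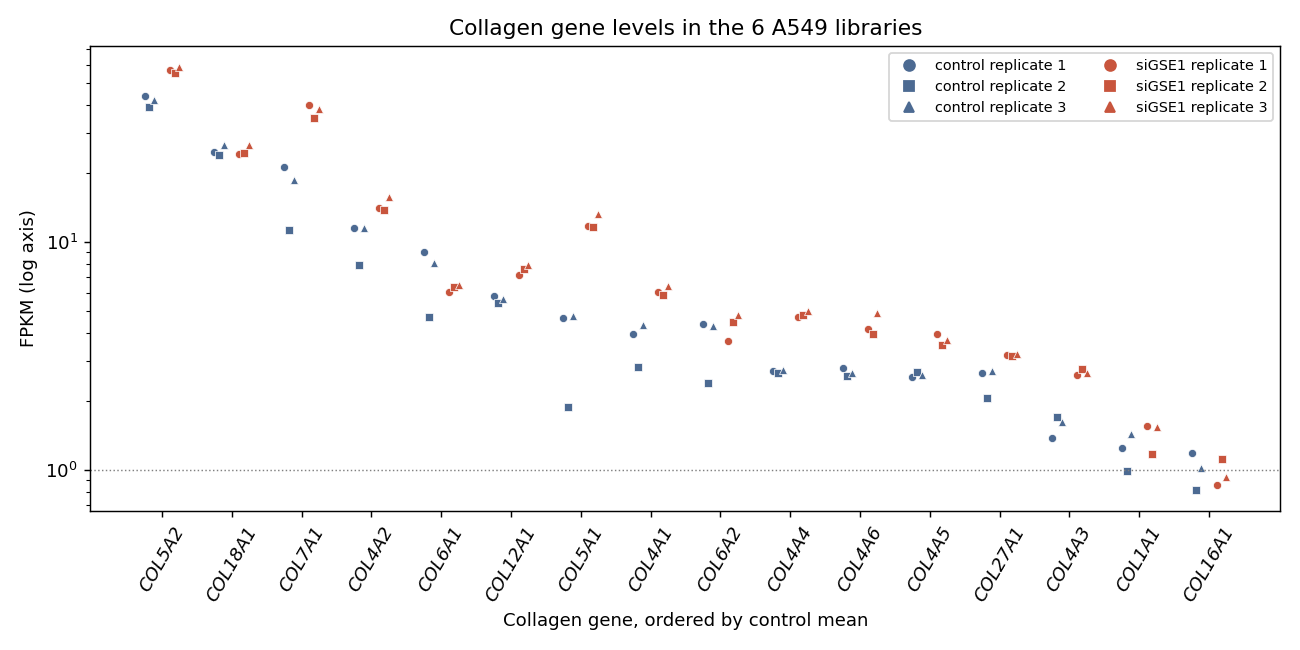
FPKM of the 16 expressed collagen genes (y axis, log scale) in each of the 6 libraries, control in blue and siGSE1 in red, with 1 symbol per replicate number; the dotted line marks 1 FPKM. COL5A1 runs from 1.88 to 4.73 FPKM in control and from 11.69 to 13.24 in siGSE1 libraries, and COL18A1 lies at 23.98 to 26.75 in both groups.

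The comparison of siGSE1 with control cells asks which genes differ after transfection of the siRNA against GSE1. Direct and indirect effects of lower GSE1, and effects of the siRNA on other transcripts, cannot be told apart here. Of the 16 expressed collagen genes, 11 rose, 0 fell and 5 did not pass an adjusted p of 0.05 in edgeR's quasi-likelihood test, fitted over 15937 genes. The 11 were COL5A1, COL7A1, all 6 type IV genes, COL5A2, COL12A1 and COL27A1. Among all genes tested, 19.9% were called, 10.9% higher and 9.02% lower, and the median log2 fold change was 0.00 against 0.45 for these 16. At an unadjusted p of 0.05 the number of collagen genes that were lower was 0 as well, and it was 0 with DESeq2 and with limma. For the same 11 genes the siGSE1 values lay above all control values, which was the case for 21.2% of all genes tested. With counts scaled to a fixed sum per length (TPM), which moved the split over all genes from 1730 higher and 1437 lower to 2544 and 929, each of the 11 was still called higher.

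COL5A1 had the largest change of the 16. It encodes the main chain of type V collagen, a minor fibrillar collagen that sets the diameter of type I fibrils (chromosome 9, 134641803 to 134844843, plus strand, hg38). It had 4.65, 1.88 and 4.73 FPKM in control replicates 1, 2 and 3 and 11.78, 11.69 and 13.24 in siGSE1 replicates 1, 2 and 3. The groups did not overlap, and control replicate 2 lay at 40.1% of the mean of the other control libraries. The log2 fold change was 1.70 (SE 0.21, edgeR adjusted p = 3.27e-05), a 3.24-fold rise, and without control replicate 2 it was 1.36 (SE 0.07), or 2.57-fold.

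COL5A2 (chromosome 2, 189031898 to 189225312, minus strand), whose product joins that of COL5A1 in the same trimer, was the most abundant collagen gene in every library. It had 43.59, 39.21 and 42.14 FPKM in control and 56.92, 54.90 and 58.55 in siGSE1 replicates 1, 2 and 3. The rise was 1.34-fold, a log2 change of 0.42 ± 0.05 (SE; edgeR adjusted p = 5.76e-05), and all siGSE1 values were above all control values. The FPKM ratio of COL5A1 to COL5A2 was 0.107, 0.0479 and 0.112 in control and 0.207, 0.213 and 0.226 in siGSE1 libraries. The ratio was thus higher in each siGSE1 library, with an exact two-sided permutation p of 0.1, the smallest that 3 against 3 libraries allow, and 0.167 after adjustment over the 5 partner ratios computed. COL3A1, the next gene on the chromosome (188974373 to 189012746, plus strand), had at most 0.07 FPKM in any library.

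The other expressed fibrillar genes moved less. COL27A1, a collagen of cartilage with a shortened triple helix (chromosome 9, 114155537 to 114312511), had 2.67, 2.06 and 2.72 FPKM in control and 3.19, 3.16 and 3.21 in siGSE1 libraries, with a log2 change of 0.34 (SE 0.09; edgeR adjusted p = 0.0144). That call was lost without siGSE1 replicate 1 (adjusted p = 0.0523) and without siGSE1 replicate 3 (0.0676). It was also lost with limma on log2(FPKM + 1) (0.085) and on log2(FPKM + 0.1) (0.0872). COL1A1, the main chain of type I collagen (chromosome 17, 50184101 to 50201632), had 1.25, 0.99 and 1.44 FPKM in control and 1.56, 1.17 and 1.54 in siGSE1 libraries. The groups overlapped, and the log2 change of 0.20 (SE 0.15; edgeR adjusted p = 0.389) did not pass.

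COL7A1 (chromosome 3, 48564073 to 48595267, minus strand) encodes the anchoring fibrils that fix the basement membrane of stratified epithelia to the connective tissue. It had 21.32, 11.31 and 18.66 FPKM in control and 40.09, 35.03 and 38.31 in siGSE1 replicates 1, 2 and 3. The groups were far apart, although control replicate 2 again lay low, at 56.6% of the other controls. The log2 fold change was 1.12 (SE 0.15, adjusted p = 6.91e-05), a 2.18-fold rise, and 0.89 (SE 0.06) without control replicate 2. With edgeR's robust prior the adjusted p was 0.0578 and the call was lost.

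**Figure D2:**
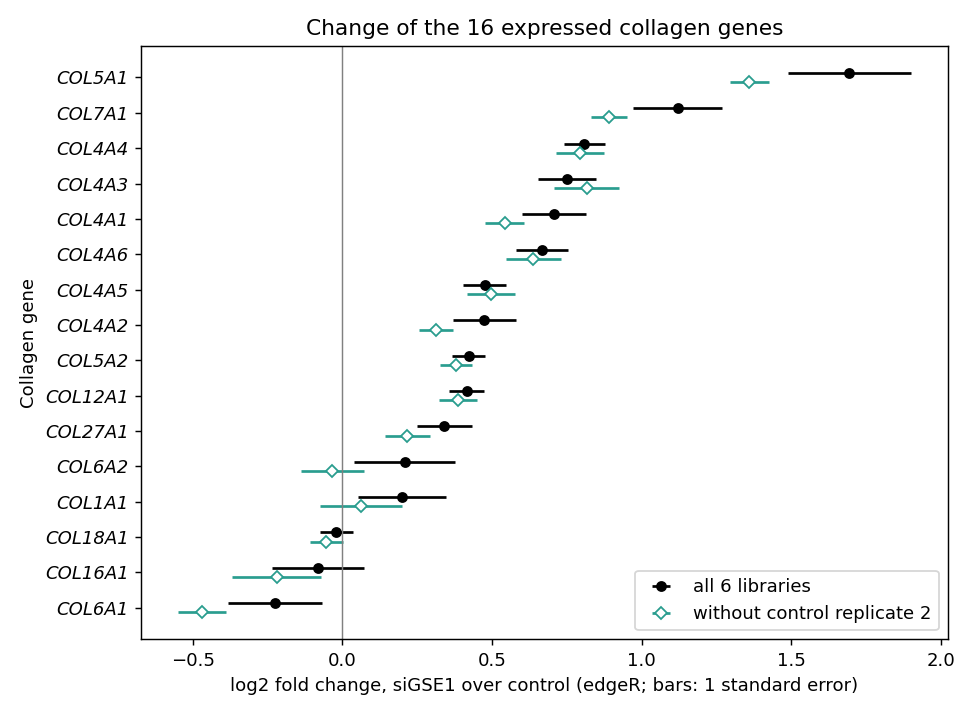
Log2 fold changes of the 16 expressed collagen genes (x axis; siGSE1 over control, edgeR) with bars of 1 standard error, from all 6 libraries (black circles) and without control replicate 2 (open teal diamonds). COL5A1 goes from 1.70 to 1.36 and COL6A1 from -0.23 to -0.47 when that library is left out, while COL4A4 stays at 0.81 and 0.79.

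The 6 type IV genes lie as 3 pairs on 3 chromosomes, and the members of a pair start back to back and are transcribed away from each other. In RefSeq (GRCh38.p14) the start sites of COL4A1 and COL4A2 on chromosome 13 have 126 bases between them, those of COL4A4 and COL4A3 on chromosome 2 have 418, and those of COL4A6 and COL4A5 on the X chromosome have 379, or 1415 from the second start site of COL4A6. Since the results turn on these pairs, the promoter window of the plus-strand member of each is printed, from 250 bases before its start site to 50 from the start site on. Capitals mark the bases that lie between the start sites of the pair, as far as the window reaches. The windows are chr13:110307034-110307333, chr2:227164374-227164673 and chrX:108439588-108439887, all on the plus strand.
COL4A2: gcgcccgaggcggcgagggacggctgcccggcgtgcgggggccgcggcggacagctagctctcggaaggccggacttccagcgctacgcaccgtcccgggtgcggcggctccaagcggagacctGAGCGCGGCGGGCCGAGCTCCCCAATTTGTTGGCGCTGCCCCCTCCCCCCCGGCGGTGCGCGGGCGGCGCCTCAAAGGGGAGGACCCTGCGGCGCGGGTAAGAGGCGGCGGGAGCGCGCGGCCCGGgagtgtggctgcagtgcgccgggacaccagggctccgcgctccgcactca
COL4A3: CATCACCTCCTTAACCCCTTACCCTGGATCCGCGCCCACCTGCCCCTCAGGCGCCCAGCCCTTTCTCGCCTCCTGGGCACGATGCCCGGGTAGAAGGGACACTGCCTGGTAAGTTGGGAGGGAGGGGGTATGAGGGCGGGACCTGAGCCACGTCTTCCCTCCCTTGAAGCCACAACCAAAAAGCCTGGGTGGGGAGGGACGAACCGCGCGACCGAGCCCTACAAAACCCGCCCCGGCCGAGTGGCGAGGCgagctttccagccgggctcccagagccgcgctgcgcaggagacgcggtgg
COL4A5: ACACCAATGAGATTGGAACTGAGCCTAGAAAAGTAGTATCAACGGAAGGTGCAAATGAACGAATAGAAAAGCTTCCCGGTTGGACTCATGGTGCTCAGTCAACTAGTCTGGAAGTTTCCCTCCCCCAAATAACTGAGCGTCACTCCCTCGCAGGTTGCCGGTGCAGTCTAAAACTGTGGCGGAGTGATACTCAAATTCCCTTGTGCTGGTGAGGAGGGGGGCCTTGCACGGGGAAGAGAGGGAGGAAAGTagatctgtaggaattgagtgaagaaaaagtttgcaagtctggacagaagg

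These shared promoters differ in composition. The windows of COL4A1 and COL4A2 were 76.7% and 77.7% G or C, those of COL4A4 and COL4A3 74.0% and 67.7%, and those of COL4A6 and COL4A5 43.7% (50.0% at the second start site) and 49.3%, where the median of all 35116 windows was 58.7%. The GC box GGGCGG, on either strand, occurred in 4 of the 7 type IV windows and 45.0% of all windows, and CCAAT, on either strand, in 4 of 7 and 34.6%. The window of COL4A5 held CCAAT or its reverse complement 2 times and no GGGCGG, and that of COL4A3 held GGGCGG 2 times and no CCAAT. The AP-1 sequence TGANTCA occurred in 0 of the 7 and 7.71% of all windows, and TATAAA in 0 and 11.5%. Overlapping windows share their matches. These are letter matches only.

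All 3 type IV pairs rose. COL4A1 (chromosome 13, 110148963 to 110307157, minus strand), the chain found in nearly all basement membranes, had 3.95, 2.82 and 4.31 FPKM in control and 6.05, 5.84 and 6.44 in siGSE1 replicates 1, 2 and 3, a log2 change of 0.71 ± 0.11 (SE; edgeR adjusted p = 2.29e-04). COL4A2, its partner (110305812 to 110513209, plus strand), had 11.53, 7.91 and 11.51 in control and 14.05, 13.82 and 15.81 in siGSE1 libraries, a log2 change of 0.47 ± 0.11 (SE; edgeR adjusted p = 0.00479). Neither gene overlapped between groups, and control replicate 2 was low for both, at 68.3% and 68.7% of the other controls. Without that library the log2 fold changes were 0.54 and 0.31, both still called. The call of COL4A2 was lost with DESeq2 (adjusted p = 0.0559), with edgeR's robust prior (0.159) and without siGSE1 replicate 3 (0.0516). The deposited spans of these genes overlap at their starts, where reads cannot be assigned to 1 of them without strand.

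COL4A3 and COL4A4, chains of the specialised basement membranes of the glomerulus and the alveolus, both rose. COL4A3 (chromosome 2, 227164624 to 227314792, plus strand) had 1.38, 1.70 and 1.63 FPKM in control and 2.62, 2.76 and 2.67 in siGSE1 libraries, and COL4A4 (227002714 to 227164453, minus strand) had 2.73, 2.66 and 2.74 in control and 4.69, 4.80 and 5.00 in siGSE1 libraries. Here control replicate 2 stood at 113% and 97.3% of the other controls. The log2 fold changes were 0.75 (SE 0.10, adjusted p = 5.05e-05) and 0.81 (SE 0.07, adjusted p = 9.58e-07), or 1.68-fold and 1.75-fold.

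COL4A5, which joins those chains in the same trimer, and its neighbour COL4A6, a chain of smooth muscle and epidermal basement membranes, rose as well. COL4A5 (X chromosome, 108439838 to 108697545, plus strand) had 2.57, 2.70 and 2.61 FPKM in control and 3.94, 3.52 and 3.70 in siGSE1 libraries, a log2 change of 0.48 ± 0.07 (SE; edgeR adjusted p = 2.04e-04). COL4A6 (108155607 to 108439497, minus strand) had 2.79, 2.58 and 2.66 in control and 4.16, 3.94 and 4.87 in siGSE1 libraries, a log2 change of 0.67 ± 0.09 (SE; edgeR adjusted p = 6.45e-05). Control replicate 2 lay at 104% and 94.7% of the other controls, and the groups did not overlap.

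**Figure D3:**
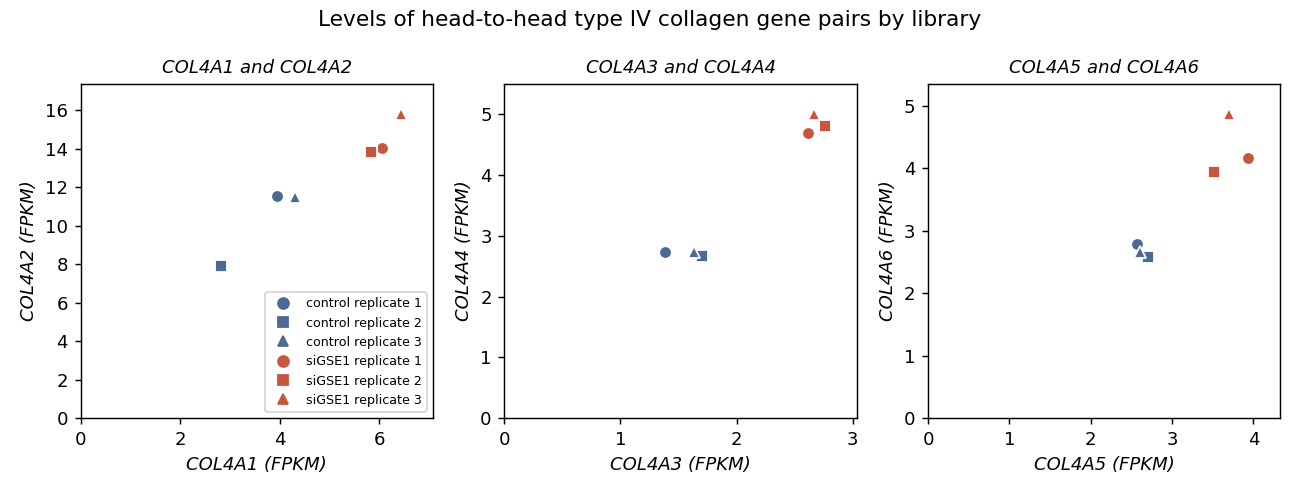
FPKM of the members of each type IV pair against each other, 1 point per library (x axis, COL4A1, COL4A3 or COL4A5; y axis, COL4A2, COL4A4 or COL4A6; both axes start at 0). In each panel the 3 siGSE1 points lie above and to the right of the control points, and control replicate 2, at 2.82 and 7.91 FPKM, is apart from the other control points in the first panel alone.

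The change in balance within each pair was measured as a ratio of deposited FPKM. The level of such a ratio depends on the lengths used, so only its change between groups is read. On transcript lengths the control means of COL4A5 and COL4A6 were 4.81 and 3.68 FPKM, against 2.63 and 2.68 as deposited. The same limit holds for the ratios of COL5A1 to COL5A2 and of COL6A1 to COL6A2. The FPKM ratio of COL4A1 to COL4A2 was 0.358 ± 0.0160 in control and 0.420 ± 0.0118 in siGSE1 libraries (SD, n = 3 each), and the groups did not overlap, with an exact permutation p of 0.1, the smallest possible. The ratio of COL4A3 to COL4A4 was 0.580 ± 0.0681 and 0.556 ± 0.0206, and that of COL4A5 to COL4A6 0.983 ± 0.0627 and 0.867 ± 0.0965 (SD, n = 3 each). Both overlapped between groups, with exact two-sided permutation p-values of 0.6 and 0.2. After adjustment over the 5 ratios the lowest p was 0.167.

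Of the collagens that decorate fibrils, COL12A1, which bridges fibrils and other matrix proteins (chromosome 6, 75084326 to 75206053), had 5.78, 5.38 and 5.60 FPKM in control and 7.19, 7.65 and 7.90 in siGSE1 libraries. The groups did not overlap, and the log2 fold change was 0.41 (SE 0.06, adjusted p = 1.42e-04). COL16A1 (chromosome 1, 31652263 to 31704319) had 1.19, 0.82 and 1.02 in control and 0.86, 1.12 and 0.93 in siGSE1 libraries, with a log2 change of -0.08 ± 0.16 (SE; edgeR adjusted p = 0.766). COL18A1, the basement membrane collagen named above, is not of that class. This gene (chromosome 21, 45405165 to 45513720), the next most abundant after COL5A2 in control cells, had 24.78, 23.98 and 26.75 in control and 24.43, 24.65 and 26.59 in siGSE1 libraries. Its log2 fold change was -0.02 with an SE of 0.06 (adjusted p = 0.846), and its span overlaps that of SLC19A1 on the other strand.

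COL6A1 and COL6A2, neighbours on chromosome 21 (45981769 to 46005050 and 46098112 to 46132848) that encode chains of the beaded filaments around cells, did not pass the test. COL6A1 had 9.01, 4.71 and 8.06 FPKM in control and 6.05, 6.32 and 6.51 in siGSE1 replicates 1, 2 and 3. The siGSE1 values lay between control replicate 2 and the other controls. The log2 fold change was -0.23 (SE 0.16, adjusted p = 0.358), but without control replicate 2 it was -0.47 (SE 0.08, adjusted p = 1.60e-05), a call in the lower direction that 10.1% of all genes shared in that fit. COL6A2 had 4.37, 2.41 and 4.30 in control and 3.67, 4.45 and 4.79 in siGSE1 libraries, a log2 change of 0.21 ± 0.17 (SE; edgeR adjusted p = 0.430) and of -0.03 without control replicate 2. The ratio of COL6A1 to COL6A2 was 2.06, 1.95 and 1.87 in control and 1.65, 1.42 and 1.36 in siGSE1 libraries, lower in each siGSE1 library, with control replicate 2 between the other controls (exact two-sided permutation p = 0.1, the smallest possible, and 0.167 adjusted over the 5 ratios).

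Control replicate 2 thus divided the collagen genes. Its value was under 75% of the mean of control replicates 1 and 3 for 8 of the 16 expressed genes, against 3.56% of 11941 other genes with a control mean of at least 1 FPKM. The 8 were COL5A1, COL6A1, COL6A2, COL7A1, COL4A1, COL4A2, COL1A1 and COL16A1, with values from 40.1% to 74.2%. COL5A2, COL12A1, COL18A1 and COL4A3 to COL4A6 lay between 91.5% and 113%, and COL27A1 at 76.4%. Of the genes that rose, the first set thus had larger spread among controls, and the part of that library in their fold changes is given by the fits without it. In those fits 11 collagen genes were higher and 1, COL6A1, was lower, where 11.8% and 10.1% of all genes were called.

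**Figure D4:**
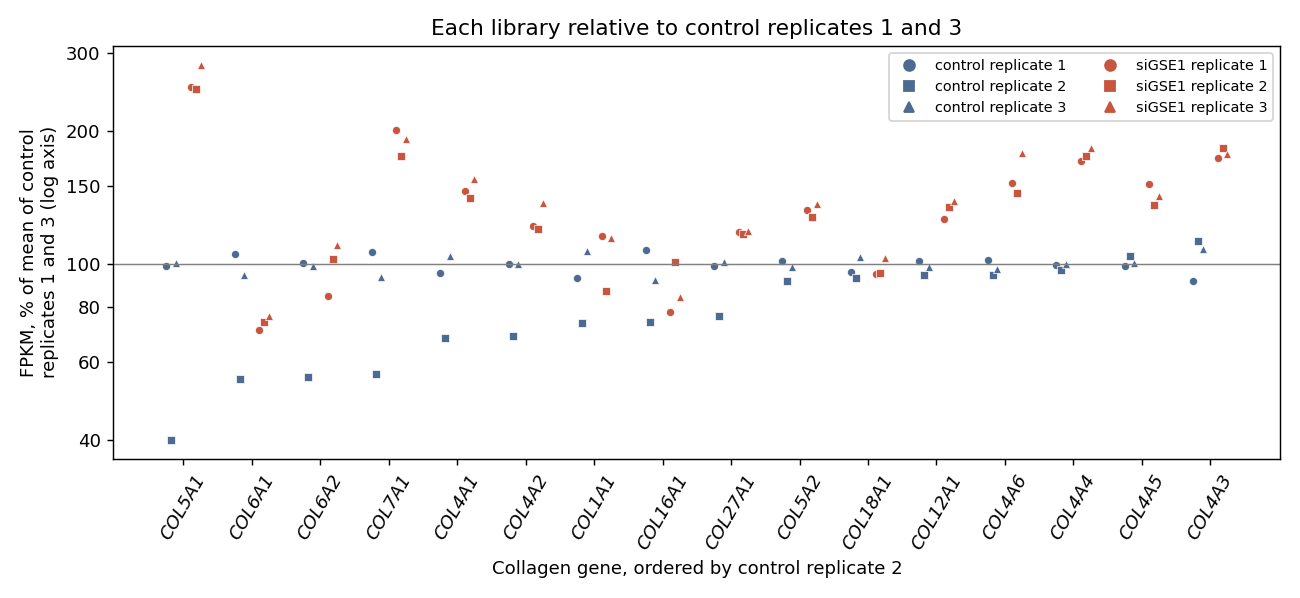
FPKM of each library as a percent of the mean of control replicates 1 and 3 (y axis, log scale) for the 16 expressed collagen genes, ordered by the value of control replicate 2 (blue squares). That library lies at 40.1% for COL5A1 on the left and at 113% for COL4A3 on the right.

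Of the 28 genes under 1 FPKM, 8 had enough counts to be tested and 1 was called, no more than the 19.9% of all genes. COL11A2, a fibrillar chain of cartilage (chromosome 6, 33162681 to 33192499), had 27, 21 and 11 counts in control and 45, 33 and 44 in siGSE1 libraries, a log2 change of 1.01 ± 0.33 (SE; edgeR adjusted p = 0.0379). That call was lost without control replicate 2 (adjusted p = 0.0547), and also with DESeq2, with limma, and without control replicate 3, siGSE1 replicate 1 or siGSE1 replicate 3. COL22A1, which had 15 to 25 counts in control and 36 to 45 in siGSE1 libraries, had an adjusted p of 0.0515. It was called higher with no TMM (edgeR adjusted p = 0.0443) and with TPM scaling (0.035), and 13 collagen genes were higher in each of these fits. COL17A1, a transmembrane chain of hemidesmosomes, had 74, 49 and 21 counts in control and 20, 31 and 42 in siGSE1 libraries, with overlapping groups (adjusted p = 0.196). COL8A1, a chain of short network-forming collagen below the count limit of the test, had 12, 16 and 0 counts in control and 0 in each siGSE1 library. With no limit on low counts its adjusted p was 3.99e-04, the sole collagen gene called lower there. That fit gave COL5A1 an edgeR adjusted p of 1.47e-131, against 3.27e-05 with the limit, so its p-values cannot be set beside those of the main fit. COL8A1 was also called lower without control replicate 3 (adjusted p = 0.00166), siGSE1 replicate 1 (0.044) or siGSE1 replicate 2 (0.0492), and the counts come from 2 libraries.

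The gene structures differ between fibrillar and type IV genes. In the GENCODE release 29 transcript with the longest coding sequence, COL5A1, COL5A2 and COL1A1 held unbroken runs of 338, 339 and 338 codon triplets that start with a glycine codon, the single long helix of fibrillar collagens. In the type IV genes the longest run was 38 to 66 triplets, with 22 to 27 runs of at least 5, and COL7A1 had 20 such runs, the longest of 75 triplets. Of the coding exons of COL5A2, 83.3% had a length that is a multiple of 9 bases and 24 of 54 were exactly 54 bases long, while in COL4A1 these were 38.5% and 2 of 52. COL7A1 has 118 exons. Genes that rose came from both kinds of structure, as the values above show. The expressed collagen genes have deposited exonic lengths of 5311 to 19271 bases, and 6882 other tested genes at least as long as the shortest had a median log2 fold change of 0.03, with 14.3% called higher.

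The promoters of the most changed genes, COL5A1 and COL7A1, are printed with GGGCGG or its reverse complement in capitals (chr9:134641553-134641852, plus strand, and chr3:48595280-48595579, minus strand, RefSeq GRCh38.p14). GGGCGG occurred on either strand 2 times in the first and 3 times in the second, and in 13 of 16 windows of expressed collagen genes, against 45.0% of all windows. It was 1 of several sequences searched. CACCC also occurred in 13 of the 16, against 59.9% of all windows, CCAAT in 4 against 34.6% and TATAAA in 3 against 11.5%. TGANTCA and GTCTAGAC occurred in 0, against 7.71% and 0.202%. These 16 windows belong to 13 genes, since COL5A1, COL18A1 and COL4A6 have 2 each, and those of COL5A1 overlap almost wholly. COL5A2, COL6A1 and COL1A1 had no window. Among genes not called, COL18A1 held GGGCGG 9 times and 1 time, COL6A2 4 times and COL16A1 2 times. The windows of COL4A4, COL4A5 and the first start site of COL4A6 held it 0 times, and the other windows of genes that rose 1 to 3 times. The 16 windows ran from 43.7% to 86.7% G or C (median of all windows 58.7%), and the comparison was not matched for this.
COL5A1: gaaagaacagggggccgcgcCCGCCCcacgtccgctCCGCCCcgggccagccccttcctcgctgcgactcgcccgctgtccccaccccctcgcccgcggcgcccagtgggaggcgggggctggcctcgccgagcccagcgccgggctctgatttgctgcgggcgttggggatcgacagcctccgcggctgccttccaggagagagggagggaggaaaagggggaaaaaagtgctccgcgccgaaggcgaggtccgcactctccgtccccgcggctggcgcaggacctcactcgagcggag
COL7A1: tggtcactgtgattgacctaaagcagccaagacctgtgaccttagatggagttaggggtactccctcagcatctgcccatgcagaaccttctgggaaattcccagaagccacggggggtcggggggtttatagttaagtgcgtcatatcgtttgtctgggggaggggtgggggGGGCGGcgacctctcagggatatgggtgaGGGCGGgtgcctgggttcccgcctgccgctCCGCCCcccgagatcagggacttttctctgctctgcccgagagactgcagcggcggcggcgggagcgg

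Genes that modify, fold and export collagen in the endoplasmic reticulum included 11 that rose and 2 that fell of 24 tested, out of 26 listed (10.9% and 9.02% of all genes), with a median log2 fold change of 0.14. P4HA3, a catalytic subunit of prolyl 4-hydroxylase, which stabilises the helix, had 9.38, 6.53 and 9.26 FPKM in control and 16.32, 16.02 and 17.36 in siGSE1 libraries, a 1.95-fold rise (log2 0.96, SE 0.10, adjusted p = 1.07e-05). P4HB, the shared subunit of that enzyme, rose from 171 ± 8.38 to 208 ± 1.64 FPKM, and FKBP14, a prolyl isomerase, from 2.08 ± 0.0416 to 3.36 ± 0.465 (SD, n = 3 each). TMEM38B, a cation channel of the endoplasmic reticulum, rose by 0.41 and P3H3, of the prolyl 3-hydroxylase family, by 0.35 on the log2 scale. P3H4, of the same family, fell from 19.7 ± 0.601 to 16.4 ± 0.365 FPKM (SD, n = 3 each). The collagen chaperone SERPINH1, with 23.5 and 24.9 FPKM, did not pass (adjusted p = 0.458). The number that rose was 7 without siGSE1 replicate 1 and 6 without siGSE1 replicate 2 or 3, and the number that fell was 1 without any 1 of these or without control replicate 1.

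Of the enzymes that trim procollagen and cross-link it outside the cell, 2 of 10 tested (16 listed) rose and 0 fell, a share called near the 19.9% of all genes, with 1 lower at an unadjusted p of 0.05 and 0 by DESeq2 or limma. Both are proteases that cut proproteins. FURIN had 42.38, 41.33 and 44.66 FPKM in control and 57.98, 60.63 and 66.44 in siGSE1 libraries, a log2 change of 0.50 ± 0.06 (SE; edgeR adjusted p = 1.80e-05). BMP1, the procollagen C-proteinase, rose from 15.7 ± 2.04 to 20.1 ± 0.124 (SD, n = 3 each). LOXL2, the most abundant lysyl oxidase here, had 40.13, 30.36 and 41.79 in control and 32.73, 32.52 and 35.65 in siGSE1 libraries and did not pass. Without control replicate 2 it did (log2 fold change -0.31, adjusted p = 2.42e-05) and 2 genes of the list were lower.

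Among 10 tested proteins that bind collagen networks (18 listed), 4 rose and 1 fell, where 10.9% and 9.02% of all genes did. NID2 and NID1, the nidogens that link type IV collagen to laminin, had log2 fold changes of 0.84 (SE 0.08, adjusted p = 2.51e-06) and 0.48 (SE 0.10, adjusted p = 0.00232). NID2 had 5.19, 4.40 and 5.57 FPKM in control and 9.28, 9.13 and 9.18 in siGSE1 libraries, with no overlap. THBS1 rose by 0.79 and FBN1, the fibrillin of microfibrils, by 0.30, the latter lost with limma, without control replicate 1 or 3 and without siGSE1 replicate 1 or 2. SPARC, a collagen-binding protein at 0.473 ± 0.275 and 0.103 ± 0.0351 FPKM (SD, n = 3 each), fell, with 0.78 FPKM in control replicate 2 as its highest value. FN1, the most abundant gene of the list, had 152.50, 230.91 and 152.32 FPKM in control and 203.48, 176.77 and 181.59 in siGSE1 libraries. It did not pass (log2 fold change 0.04, edgeR adjusted p = 0.834). Without control replicate 2, at 152% of the other controls, FN1 was called higher (0.27, edgeR adjusted p = 1.09e-04). In that fit 5 genes of the list were higher, where 11.8% of all genes were.

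Of 14 tested genes of collagen degradation, inhibitors included (22 listed), 2 rose and 3 fell, where 10.9% and 9.02% of all genes did. MRC2, an endocytic collagen receptor, rose from 14.5 ± 1.86 to 22.2 ± 1.41 FPKM (log2 0.59, SE 0.08, adjusted p = 8.18e-05), and the gelatinase MMP2 rose from 0.723 ± 0.148 to 1.19 ± 0.171 (SD, n = 3 each). The metalloprotease inhibitors TIMP1 and TIMP2 fell by 0.17 and 0.19 and the protease CTSS by 0.29 on the log2 scale. TIMP1 was lost in most fits that left out a library. MMP2 was lost without siGSE1 replicate 2 or 3 or control replicate 2, leaving 1 that rose, and 1, 1 and 0 fell without siGSE1 replicates 1, 2 and 3.

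Of 8 tested collagen receptors (12 listed), 4 rose and 0 fell by edgeR, where 10.9% and 9.02% of all genes did. The number lower was also 0 at an unadjusted p of 0.05, by DESeq2 and by limma. ITGA11, the subunit of a fibrillar collagen integrin, had 0.89, 0.50 and 0.63 FPKM in control and 1.43, 1.42 and 1.45 in siGSE1 libraries, a log2 change of 1.06 ± 0.16 (SE; edgeR adjusted p = 2.65e-04). ITGA1, of the integrin that prefers type IV collagen, had 0.73, 0.81 and 0.75 in control and 1.08, 1.20 and 1.25 in siGSE1 libraries (log2 0.60, SE 0.10, adjusted p = 4.25e-04). ADGRG1, an adhesion receptor that binds type III collagen, rose by 0.41, and ADGRG6, which binds type IV collagen, by 0.29. The call of ADGRG6 was lost without siGSE1 replicate 1, 2 or 3 and with limma.

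**Figure D5:**
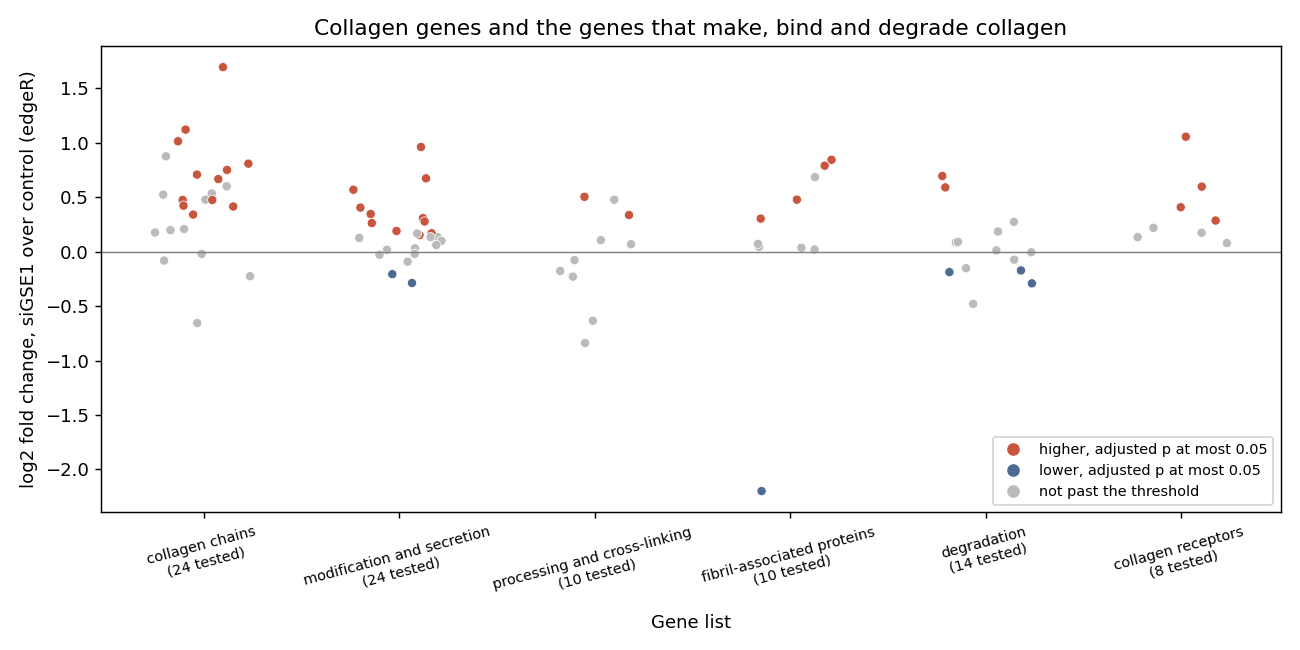
Log2 fold changes (y axis; siGSE1 over control, edgeR) of the tested members of the collagen genes and of 5 lists of genes that make, process, bind, degrade or sense collagen, 1 point per gene, red for called higher, blue for called lower and grey for not past the threshold; horizontal scatter has no meaning. The collagen genes reach 1.70 (COL5A1), and the lowest point is SPARC at -2.20.

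Markers of fibroblasts, the cells that make most collagen in tissue, were given the same look. Of 12, 10 were under 1 FPKM in both groups, and PDGFRB, FAP, DCN and DPT had means of at most 0.0200 FPKM, with DPT at 0 in all libraries. The summed level of the 12 was 3.60 to 4.63 FPKM in control and 5.68 to 7.02 in siGSE1 libraries, most of it ACTA2, at 2.63 ± 0.0404 and 4.08 ± 0.675 FPKM (SD, n = 3 each). Of 5 tested, 2 rose and 0 fell, where 10.9% and 9.02% of all genes did. The 2 were ACTA2 and TAGLN, which are contractile genes of smooth muscle as well. Of the 6 epithelial markers 0 rose and 2 fell, beside the same shares of all genes. Those that fell were the keratins KRT8 and KRT18, with log2 changes of -0.26 (SE 0.07; edgeR adjusted p = 0.0173) and -0.25 (SE 0.08; edgeR adjusted p = 0.0317). The summed level of the 6 was 2199 to 2534 FPKM in control and 2099 to 2113 in siGSE1 libraries. Control replicate 2 was high for both keratins, at 123% and 127% of the other controls, and without it KRT8 was still called (adjusted p = 0.0221) and KRT18 was not (0.0716). KRT7, for which control replicate 2 lay at 77.6%, was called lower in that fit (log2 fold change -0.13, edgeR adjusted p = 0.0447). The number of epithelial markers that fell was thus 2 there as well, where 10.1% of all genes fell. The part of these shifts in the collagen values was not tested. Of 6 endothelial and 7 leukocyte markers, 6 and 5 were under 1 FPKM.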

How the data were processed

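Gene counts of 3 siGSE1 and 3 control libraries, made from 500 ng of total RNA with the TruSeq RNA kit per the labels' protocols, were taken as the authors deposited them, without normalization. The deposited FPKM equal count divided by exonic length and library total within 0.0051 in 100% of cells. The sources differ on the rest: the submitters' processing notes name HISAT2, StringTie 1.3.3b, HTSeq, edgeR and hg38, and the series text names STAR and DESeq2. For strand use and annotation release, nothing is given in the sources used here.

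Counts of all genes were filtered (filterByExpr, minimum count 10, minimum total 15), scaled by TMM and tested with edgeR 4.0.16 in R 4.3.3 (glmQLFTest, group alone), with Benjamini-Hochberg adjustment over the 15937 genes left. The SE is the absolute log2 fold change over the square root of F. Fold changes come from the fit, FPKM from the table. DESeq2 1.42.0, limma 3.58.1 on log2(FPKM + 1) or log2(FPKM + 0.1), other scalings, no filter, a robust prior, a replicate block and each library left out were alternatives. On simulated counts 86.9% of 99 genes changed by 1 and 57.1% of 98 changed by 0.5 (log2) were recovered, and 0.0711% of unchanged genes were called. The simulation changed far fewer genes than were called in the data and had no outlying library, so these rates may not hold for the data. The biological coefficient of variation was 7.0%.

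The members and lists were chosen with earlier results of these data known. All expressed collagen genes are named, and of each list up to 6 called genes of smallest adjusted p. SERPINH1, LOXL2, FN1, COL8A1, COL22A1, COL17A1 and the cell markers were named after their values were seen. Promoter windows are from RefSeq, which had them for 32 of the 44 genes. Of the 44, all were in GENCODE release 29, 16 with the same coordinates.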

Additional observations from a re-analysis of the deposited data

How the results depend on the processing

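Of the 11 expressed collagen genes called higher, 8 kept that call in all 15 alternatives: COL5A1, COL5A2, COL12A1, COL4A1, COL4A3, COL4A4, COL4A5 and COL4A6. The alternative with no filter gave each of the 8 a far smaller adjusted p than the main fit, so it was a weak check. With edgeR's robust prior COL5A1 and COL4A1 kept it narrowly, at adjusted p = 0.0492 and 0.039, where COL7A1 lost it at 0.0578. With the replicate block, 12 collagen genes were higher and 0 lower, as in the fit without it. Replicates with the same number correlated at 0.0200, -0.0185 and 0.00238 in their deviations from the group means. Not every library correlated best with its own number. These values gave no sign of pairing, but they cannot show whether libraries of the same number were handled together. Leaving out 1 library gave 9 to 12 collagen genes higher and 0 to 1 lower (COL6A1 without control replicate 2, otherwise COL8A1), and with no filter 1, COL8A1, was lower.

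Among the lists, modification and secretion had 6 to 13 higher and 1 to 2 lower with a library left out, and 1 lower with TPM scaling and with limma at either pseudocount. Processing had 0 to 2 lower with a library left out and 1 with no filter. Fibril-associated proteins had 0 lower with limma on log2(FPKM + 1). Degradation had 1 to 2 higher and 0 to 4 lower with a library left out and 1 lower with TPM scaling. Over all genes, 1049 to 1914 were higher and 814 to 1648 lower with a library left out, and 929, 887 and 909 lower with TPM scaling and limma at pseudocounts 1 and 0.1. The cause was not tested.

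Directions that turned were those of genes not called: with a library left out, the log2 fold change of COL6A2 ran from -0.033 (without control replicate 2) to 0.375, that of COL16A1 from -0.219 to 0.074 (without control replicate 1) and that of COL18A1 from -0.061 to 0.0070 (without control replicate 3; also above 0 without siGSE1 replicate 1). COL18A1 was also above 0 with no TMM (0.0042), TPM scaling (0.042) and limma at pseudocounts 1 and 0.1 (0.0034 and 0.0035). Depth limits the 28 genes under 1 FPKM, of which 20 had too few counts to test.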

Other observations

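Other human proteins carry a collagen-like triple helix without being counted as collagens. Of 32 such genes, listed after the collagen values were seen, 5 were at 1 FPKM or more and 9 were tested, of which 2 rose and 0 fell by edgeR at an adjusted p of 0.05, where 19.9% of all genes were called and 10.9% rose, so the share is near that of all genes. C1QTNF6, a secreted protein related to adiponectin, had 3.18, 4.61 and 3.71 FPKM in control and 5.47, 5.57 and 5.89 in siGSE1 replicates 1, 2 and 3, a log2 change of 0.53 ± 0.10 (SE; edgeR adjusted p = 0.00180). SCARA3, a scavenger receptor-like protein, had 18.02, 19.67 and 17.25 in control and 20.47, 22.32 and 23.13 in siGSE1 libraries, a log2 change of 0.24 ± 0.07 (SE; edgeR adjusted p = 0.0186). In control replicate 2 both were higher than in the other control libraries, unlike COL5A1 and COL7A1. The surfactant protein genes SFTPA1 and SFTPD, products of alveolar type II cells, had means of 0.0200 and 0.140 FPKM in control cells.

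Of the rows named after collagen genes that are antisense or pseudogenes, COL5A1-AS1, which lies within COL5A1 on the other strand (chromosome 9, 134649385 to 134653073), had 0 counts in each control library and 3, 5 and 2 in siGSE1 replicates 1, 2 and 3. Without strand, these reads and those of COL5A1 cannot be told apart.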
